A study of Homo sapiens with 12 samples.

Results

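The response to XRN2 depletion that LN229 and U251 cells have in common was measured in 8 of the 12 libraries of the series: 4 from cells given XRN2 siRNA (2 of each line) and 4 from cells given a control siRNA, labelled siNT_OTP (2 of each line). Both are established human glioblastoma cell lines. Each group of 2 libraries is 1 line with 1 treatment (XRN2 siRNA, control siRNA or mock), and RNA was taken 72 hours after reverse transfection. Genes were tested for an effect of the XRN2 siRNA with the line as a second term, and the 4 libraries of mock-transfected cells (2 of each line) are set beside them. Both control groups carry their native XRN2, and the depletion is transient and partial. No sequence of either siRNA was at hand, and whether 1 siRNA or a pool was used is not stated. Nothing in the labels says that replicates were separate cultures. The p-values therefore measure the spread among these samples alone, and that spread may be technical.

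XRN2 is the main nuclear exoribonuclease that degrades RNA from its 5′ end. In the torpedo model of termination it digests the RNA still being made downstream of a cut poly(A) site until the polymerase is released, and it also trims or removes ribosomal and small nucleolar RNA precursors. The library kit (TruSeq RNA v2) is known for selecting RNA with a poly(A) tail without marking the strand. The values below are thus mainly levels of polyadenylated messages, and genes that overlap on opposite strands share reads.

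Exon reads numbered 4846768 to 7469052 per library, and 3 reads, the most that a count of 0 allows, correspond to 0.402 to 0.619 CPM (counts-per-million) when only counting error is considered. Libraries of a pair differed by more than sampling noise in all 6 groups, with chi-square statistics per gene of 1.70 to 24.7. The largest values were 24.7 in U251 mock, 17.8 in LN229 control siRNA and 7.14 in LN229 XRN2 siRNA. The other pairs reached at most 2.54. The LN229 XRN2 siRNA libraries differed in genes of mitosis and DNA replication, as given below. Among the control siRNA and mock libraries, 2 stood apart. LN229 control siRNA replicate 1 held 5.58% of its gene reads in introns against 7.60% to 9.55% in the other 11, and relative to replicate 2 its values were lower the longer a gene's exons were (Spearman's rho = −0.49 over 14232 genes, a description). U251 mock replicate 2 carried transcripts of the unfolded protein and ATF4 response at a summed 41734 CPM, against 8317 in its partner. It is not in the 8-library test, but it enters the comparisons with mock and, through the spread of its pair, the 12-library test. Of 10 blood cell markers 9 were under 1 CPM in all 8 libraries, and the endothelial markers CLDN5, EMCN, ERG, TEK and TIE1 and the epithelial markers CDH1, EPCAM, ESRP1, KRT5 and KRT19 were under 1 CPM as well. Of 16 glial and neural stem markers 5 (ALDH1L1, AQP4, MSI1, PROM1 and SLC1A2) were also under 1 CPM in all 8, and the sum of the 16 was 5012 to 6435 CPM with control siRNA and 3315 to 4253 with XRN2 siRNA in LN229, and 15784 to 18030 and 17274 to 18136 in U251.

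With the line as a second term, 13 of 14075 genes tested (0.0924%) passed for XRN2 siRNA, 9 of them higher (0.0639%) and 4 lower (0.0284%) (edgeR's quasi-likelihood test, Benjamini-Hochberg adjusted p under 0.05). Apart from XRN2, the genes that fell were SPP1, NRGN and TFPI, which encode osteopontin, neurogranin and tissue factor pathway inhibitor. The genes that rose were PSMG3-AS1, PHACTR1, EHF, MMP7, USP32P3, COL14A1, TOX, CCDC144CP and GREB1. All of these but PSMG3-AS1 were rare in 1 line, so their calls rest mainly on the other line. With 1 mean per group in the same 8 libraries, 5 of the 13 passed: XRN2, SPP1, NRGN, TFPI and PSMG3-AS1. In 12 of the 13 (0.0853% of genes tested) the fitted fold changes of the lines had the same sign, and in 11 both XRN2 siRNA libraries lay beyond both control siRNA libraries on the same side in each line, an arrangement that 18.2% of all genes tested showed. The test chose the 13 from these same libraries, so their arrangement is no separate support. At an unadjusted p under 0.05 there were 2409 genes, and DESeq2 and limma-voom called 342 and 477, the 13 among them. The number rests on single libraries: 22 genes were called without LN229 control siRNA replicate 1, 9 without LN229 control siRNA replicate 2, and XRN2 alone when any one of the other 6 libraries was left out.

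**Figure D1:**
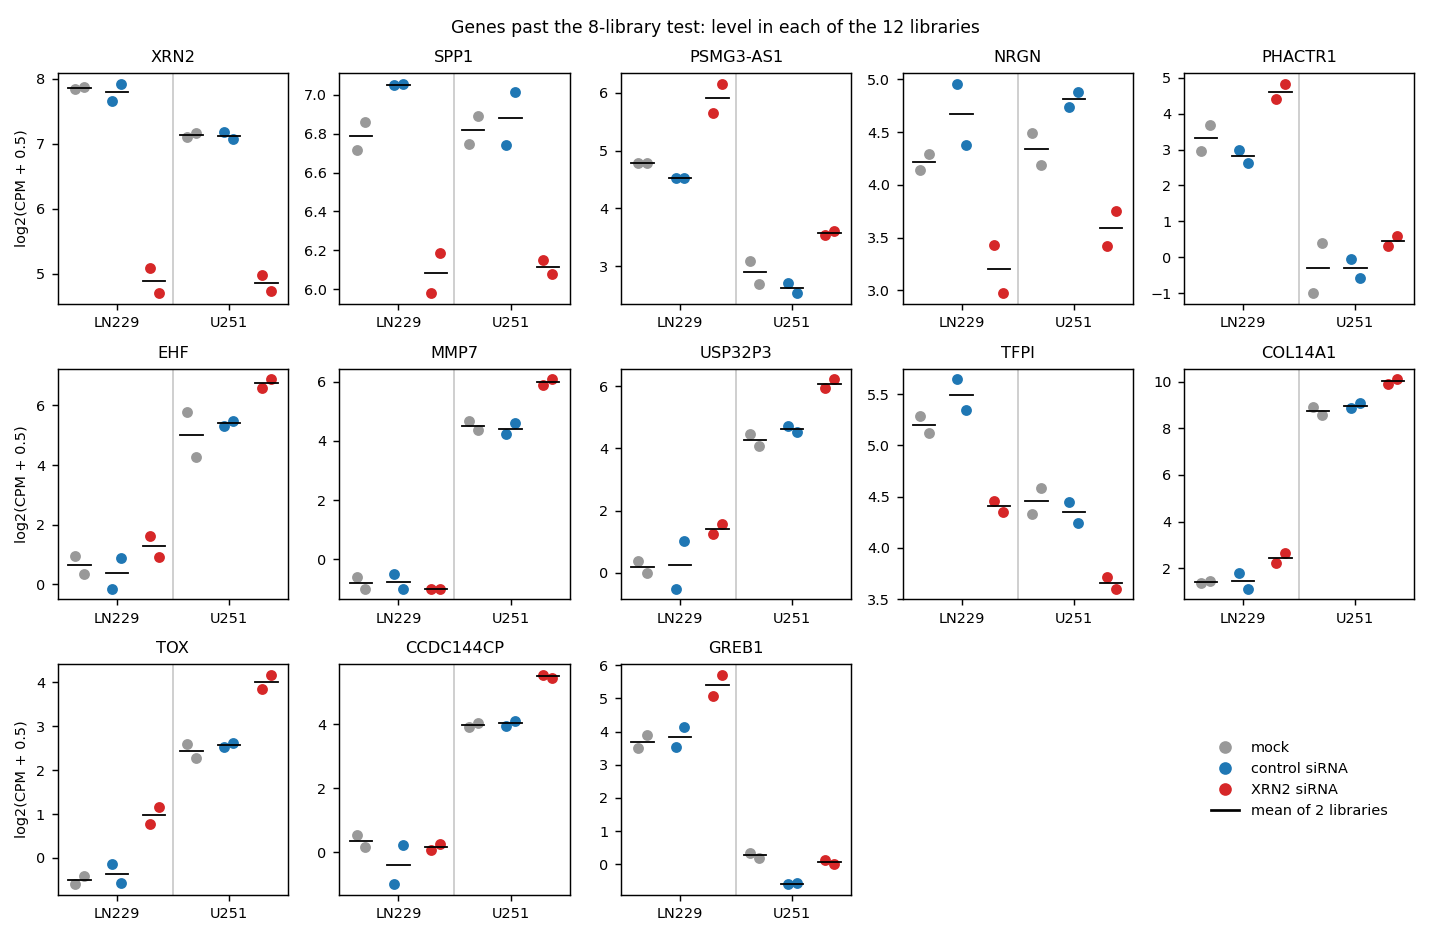
Level of each of the 13 genes past the 8-library test in all 12 libraries, as log2 of TMM-scaled CPM plus 0.5, with mock (grey), control siRNA (blue) and XRN2 siRNA (red) of LN229 to the left and U251 to the right of the grey line; each point is 1 library and each black line the mean of 2. XRN2, SPP1, NRGN and TFPI are low in all 4 XRN2 siRNA libraries, whereas 8 of the 9 higher genes stay under 6 CPM in all libraries of one line and PSMG3-AS1 does not.

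XRN2 (ENSG00000088930; chromosome 20, 21303304 to 21389827 on the plus strand, GRCh38) was low in each library of its siRNA. In LN229 it stood at 33.5 and 25.5 CPM with XRN2 siRNA, at 201 and 242 with control siRNA and at 229 and 235 in mock. In U251 it stood at 31.0 and 26.1 CPM, 144 and 134, and 138 and 143, in the same order. The 4 depleted libraries thus ended at similar levels, although LN229 began higher, and none overlapped a control or mock library. Over both lines the log2 fold change was −2.59 (SE 0.16, edgeR adjusted p = 7.58e-05), and against mock in place of control siRNA it was −2.64 (SE 0.14, adjusted p = 4.28e-05). The change in U251 was smaller by 0.62 (SE 0.25), a difference that missed the threshold (adjusted p = 0.773). Against mock, 64 of the 14075 genes passed (0.455%), 42 higher (0.298%) and 22 lower (0.156%), and 10 of the 13 were among them; that comparison uses the same XRN2 siRNA libraries.

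SPP1 (chromosome 4, 87975650 to 87983426, plus strand) encodes osteopontin, a secreted phosphoprotein that binds integrins and CD44 and is known for its high level in mesenchymal glioblastoma. Its levels were alike in the lines: 62.6 and 72.3 CPM with XRN2 siRNA, 132 and 133 with control siRNA and 104 and 116 in mock in LN229, and 70.5 and 67.1, 107 and 129, and 107 and 118 in U251. All 4 XRN2 siRNA libraries lay below all 8 other libraries. The log2 fold change was −0.87 (SE 0.11, edgeR adjusted p = 0.0266), with −0.97 in LN229 and −0.77 in U251, and it was −0.71 against mock (adjusted p = 0.0243). With each library left out in turn the adjusted p ranged from 0.00748 to 0.148.

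NRGN (chromosome 11, 124739846 to 124747210, plus strand) encodes neurogranin, a calmodulin-binding protein best known from neuronal synapses. It stood at 10.3 and 7.35 CPM with XRN2 siRNA, 30.6 and 20.3 with control siRNA and 17.1 and 19.1 in mock in LN229. In U251 the levels were 10.2 and 13.0, 26.2 and 29.03, and 22.0 and 17.7 CPM. The XRN2 siRNA libraries were again below all others, while in both lines the control siRNA libraries were above the mock libraries, so that the log2 fold change of −1.37 (SE 0.17, edgeR adjusted p = 0.0266) became −0.90 (SE 0.15, adjusted p = 0.0405) against mock. Control siRNA against mock was at 0.48 (SE 0.15) and did not pass the test (adjusted p = 0.904). With each library left out the adjusted p of the fall ranged from 0.00919 to 0.148.

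TFPI (chromosome 2, 187464230 to 187565760, minus strand) encodes the main inhibitor of the tissue factor pathway that starts blood clotting. Levels with XRN2 siRNA, control siRNA and mock were 21.5 and 19.9, 49.5 and 40.0, and 38.5 and 34.2 CPM in LN229, and 12.6 and 11.6, 21.3 and 18.5, and 19.7 and 23.5 CPM in U251. In each line the XRN2 siRNA libraries lay below all control siRNA and mock libraries, while control siRNA and mock overlapped in U251. The log2 fold change was −0.93 (SE 0.13, edgeR adjusted p = 0.0394) over the lines and −0.82 (adjusted p = 0.0327) against mock. The adjusted p ranged from 0.0242 to 0.248 with single libraries left out.

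PSMG3-AS1 (chromosome 7, 1570073 to 1589626, plus strand), a noncoding RNA annotated as lincRNA and named as antisense to the proteasome assembly factor gene PSMG3, was the only higher gene of the 13 at 5 CPM or more in every library. Its levels were 49.8 and 70.9 CPM with XRN2 siRNA, 22.6 and 22.5 with control siRNA and 27.2 and 27.0 in mock in LN229. In U251 they were 11.1 and 11.6, 6.04 and 5.28, and 8.02 and 5.97 CPM. The log2 fold change was 1.27 (SE 0.16, edgeR adjusted p = 0.0266), 1.42 in LN229 and 1.00 in U251, and 1.00 (adjusted p = 0.0405) against mock. Reads of PSMG3 cannot be told apart from its reads wherever the genes overlap, and the adjusted p reached 0.148 when single libraries were left out.

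Of the other 8 higher genes, 6 were expressed mainly in U251. COL14A1, which encodes type XIV collagen, a fibril-associated collagen, stood at 966 and 1098 CPM with XRN2 siRNA, 469 and 535 with control siRNA and 474 and 380 in mock in U251. In LN229 the same gene stood at 4.20 and 5.77, 3.02 and 1.68, and 2.08 and 2.28 CPM. Although its level differed widely between the lines, the log2 fold changes were 1.04 in U251 and 1.09 in LN229 (1.05 over both, SE 0.15, edgeR adjusted p = 0.0394; 1.24 against mock, adjusted p = 0.00288). TOX, a chromatin protein with an HMG box known from lymphocyte development, stood at 13.8 and 17.5 CPM against 5.25 and 5.63 with control siRNA in U251, and rested on 9 and 10 reads against 2 and 1 in LN229 (log2 fold change 1.63, SE 0.24, adjusted p = 0.0462). EHF, an ETS family transcription factor of epithelia, stood at 96.2 and 117 CPM against 39.6 and 43.6 in U251 (1.33, SE 0.18, adjusted p = 0.0338), but U251 mock spanned 18.7 to 54.2 CPM, and in LN229 the gene rested on 19 and 8 reads against 2 and 8.

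MMP7, the matrix protease matrilysin, was higher in U251 and not measurable in LN229. Its reads numbered 393 and 400 with XRN2 siRNA, 115 and 134 with control siRNA and 131 and 124 in mock in U251, against at most 1 read in any LN229 library. It passed the test (log2 fold change 1.56, SE 0.22, edgeR adjusted p = 0.0394) on the U251 libraries alone, and the fitted sign in LN229, where both XRN2 siRNA libraries had 0 reads, is set by 1 read. It is therefore no shared change.

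USP32P3 and CCDC144CP are transcribed pseudogenes that follow each other on the plus strand of chromosome 17, at 20321164 to 20403557 for CCDC144CP and, 11990 bases further on, at 20415547 to 20431008 for USP32P3. USP32P3 stood at 61.1 and 74.0 CPM against 26.1 and 22.7 in U251 and at 1.90 and 2.45 CPM against 0.201 and 1.51 in LN229 (log2 fold change 1.44, SE 0.21, edgeR adjusted p = 0.0394; 1.80 against mock, adjusted p = 0.00288). CCDC144CP stood at 46.3 and 43.0 CPM against 14.9 and 16.7 in U251, and had 4 reads in each XRN2 siRNA library against 0 and 4 in LN229, where the groups touched (1.45, SE 0.22, adjusted p = 0.0473). Reads in the introns of both genes were also more frequent with XRN2 siRNA, with log2 ratios of 1.46 and 1.07 in U251 and 1.78 and 1.33 in LN229 for USP32P3 and CCDC144CP. These rest on means of 89.1 and 12.1 intron reads per library. The LN229 ratios include control siRNA replicate 1, which held few intron reads. Over all tested genes with at least 10 intron reads the LN229 median was 0.33. Both belong to families with near-identical copies, so the authors' counting could have split their reads, and how it treated such reads is not stated.

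PHACTR1 and GREB1 were the 2 genes expressed mainly in LN229. PHACTR1, a regulator of protein phosphatase 1 and actin, stood at 20.6 and 27.997 CPM with XRN2 siRNA, 7.45 and 5.72 with control siRNA and 7.35 and 12.4 in mock in LN229, and had 5 and 6 reads against 3 and 1 in U251 (log2 fold change 1.83, SE 0.24, edgeR adjusted p = 0.0300). GREB1, known as an oestrogen-regulated gene, stood at 33.3 and 51.8, 11.1 and 17.2, and 10.9 and 14.3 CPM in LN229 (1.58, SE 0.24, adjusted p = 0.0473). In U251 GREB1 had 4 and 3 reads with XRN2 siRNA, 1 and 1 with control siRNA and 4 and 4 in mock, so that the XRN2 siRNA libraries did not lie above mock there. Against mock neither gene passed (adjusted p = 0.0711 and 0.0512).

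Beyond the called genes, fold changes of the lines were positively related across the transcriptome. In 3247 genes, 23.1% of those tested, the XRN2 siRNA libraries lay wholly apart from the control siRNA libraries in both lines, and in 2568 of these the direction was the same (1225 higher, 8.70%, and 1343 lower, 9.54%), which is 79.1%, against 679 with opposite directions (4.82%). When control siRNA was set against mock in the same way, 1481 genes lay wholly apart in both lines, and 749 of them (50.6%; 5.42% of 13826 genes tested) had the same direction and 732 (5.29%) opposite ones. Across 10423 genes at 5 CPM or more with control siRNA in both lines, the log2 fold changes of the lines were related with Pearson's r = 0.44 and Spearman's rho = 0.41 (0.43 without LN229 control siRNA replicate 1), against a Spearman's rho of 0.04 for control siRNA over mock. These points are genes of the same few libraries, so the coefficients are descriptions. Within the 8 libraries, edgeR's test of LN229 alone passed for 102 genes (0.725%) and that of U251 alone for XRN2 only (0.0071%). These counts depend on the tool and on single libraries: limma-voom called 1 gene in LN229 and 114 in U251, and with single libraries left out edgeR called 1 to 4012 in LN229 (4012 without LN229 control siRNA replicate 2, 2 without LN229 XRN2 siRNA replicate 2, and 1 without any one U251 library) and 0 to 17 in U251. Of the 101 LN229 genes other than XRN2, 77 (76.2%) had the same sign in U251, where 60.5% of all genes did. Their median log2 fold change in U251 was 0.20 for the 46 higher and −0.39 for the 55 lower ones, against 1.29 and −1.24 in LN229. The test of a difference between the lines passed for 0 of 14075 genes in edgeR, with 898 at an unadjusted p under 0.05, 18 in DESeq2 and 0 in limma-voom, and 1692 in edgeR without LN229 control siRNA replicate 2.

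**Figure D2:**
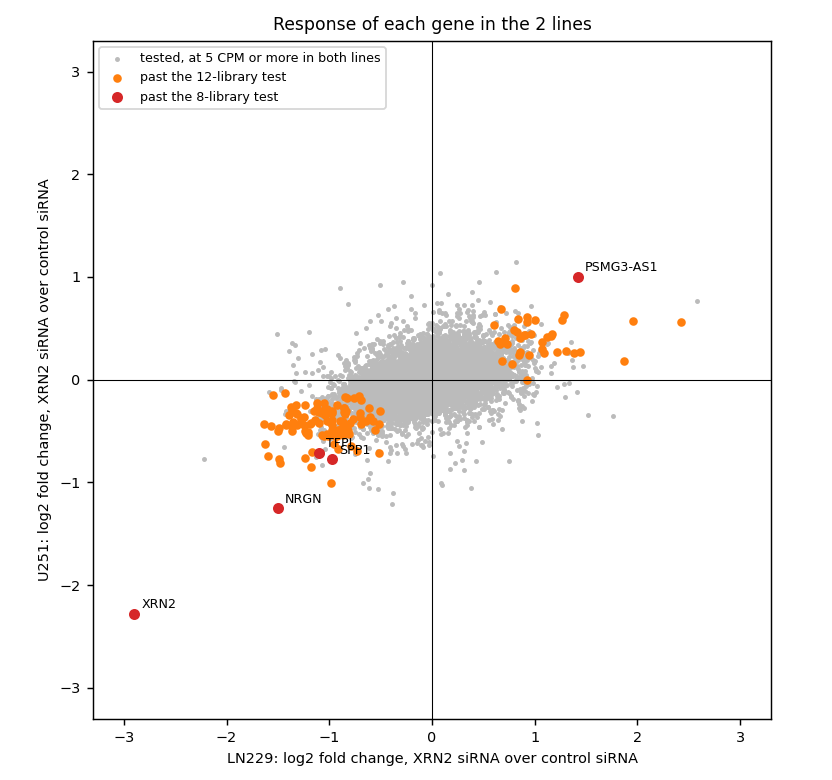
Log2 fold change of XRN2 siRNA over control siRNA in LN229 (horizontal) and U251 (vertical) for 10423 genes at 5 CPM or more in both lines (2 lie outside the axes), with genes past the 12-library test in orange and the 5 past the 8-library test that reach this level in red. The cloud is tilted (Spearman's rho = 0.41), and the orange genes fall in the lower left and upper right, nearer to the horizontal axis than to the vertical one.

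A fit with 1 mean per group over all 12 libraries, which adds the spread of the mock pairs to the estimate of error, called 173 genes for the mean of the 2 lines (1.23% of the 14075; 63 higher, 0.448%, and 110 lower, 0.782%). Without LN229 control siRNA replicate 1 this fit called 76, 24 higher and 52 lower. All 173 had an unadjusted p under 0.05 in the 8-library test, with adjusted p-values there of up to 0.265, and 8 passed in both: XRN2, SPP1, NRGN, TFPI, PSMG3-AS1, COL14A1, TOX and USP32P3. In 169 the libraries lay wholly apart from control siRNA with one direction in both lines, and in 148 from mock as well, where 18.2% and 8.97% (4.59% higher and 4.38% lower) of all genes did. The test chose these genes from the same XRN2 siRNA libraries, so these arrangements and the 8-library p-values are no separate support. LN229 had the larger change in 164 of 173 (median size 1.07 on the log2 scale, against 0.43 in U251), and 33 genes changed at least 2-fold, 22 higher and 11 lower. The genes and groups below are given with the adjusted p of this fit, called the 12-library test, where they passed it. It tests the mean of the lines, so a gene can pass on a change mainly in 1 line.

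Among the higher genes of the 12-library test, SERPINA5, which encodes protein C inhibitor, and NPR2, the receptor for C-type natriuretic peptide, moved more in U251. SERPINA5 stood at 9.35 and 12.8 CPM with XRN2 siRNA, 2.86 and 3.17 with control siRNA and 2.86 and 2.096 in mock in U251, and at 32.1 and 40.9, 27.996 and 24.2, and 22.2 and 26.1 CPM in LN229 (log2 fold change 1.18, SE 0.17, edgeR adjusted p = 0.0142). NPR2 was at 0.87 (SE 0.14, adjusted p = 0.0202), with 1.14 in U251 and 0.60 in LN229. The others named by the same rule moved more in LN229: DNHD1, a dynein heavy chain domain protein, at 1.26 (1.95 in LN229 and 0.57 in U251), the pseudogene FER1L4 at 1.39 (2.08 and 0.69), ALDH3B1, an aldehyde dehydrogenase, at 0.93 (1.27 and 0.58), SEL1L3 at 1.02 (1.78 and 0.26), LCTL at 0.65 (0.83 and 0.46), FAM114A1 at 0.59 (0.94 and 0.24) and XKR4 at 0.77 (1.34 and 0.20). Their adjusted p-values were 0.0108 to 0.0202.

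Genes of mitosis were lower in both lines as a group. This was the only one of 28 lists, markers aside, in which every tested member had a fold change below 0 in each line: 40 of 40 in LN229 and 40 of 40 in U251, where 7054 and 6707 of 14075 genes did, with medians of −0.68 and −0.39 (−0.53 over both, against 0.01 for all genes tested). No member passed the 8-library test, although 37 of the 40 had an unadjusted p under 0.05, where 2409 of 14075 genes did. By the 12-library test 14 fell, where 0.782% of all genes tested did. Both XRN2 siRNA libraries lay below both control siRNA libraries in both lines for 31 of the 40, and below the mock libraries too for 21. Of all genes tested 9.54% and 4.38% did. Against mock the median was −0.49, and control siRNA over mock stood at 0.09. Without LN229 control siRNA replicate 1 the median was −0.54 and all 40 stayed below 0, and over the 21 alternatives the median ran from −0.63 to −0.43. A smaller share of dividing cells and less of these RNAs per cell cannot be told apart in RNA of whole cultures.

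The 14 members that fell span the programme from its transcription factor to chromosome separation. CDC20, the activator of the anaphase-promoting complex, stood at 115 and 85.4 CPM with XRN2 siRNA, 231 and 185 with control siRNA and 170 and 185 in mock for LN229, and at 119 and 93.9, 160 and 150, and 144 and 147 CPM in U251 (log2 fold change −0.80, SE 0.12, edgeR adjusted p = 0.0202). KIF2C, a kinesin that takes apart microtubule ends at centromeres, stood at 76.5 and 53.2, 133 and 119, and 114 and 120 CPM in LN229 and 74.0 and 55.0, 103 and 97.6, and 83.6 and 88.4 CPM in U251 (−0.79, SE 0.13, adjusted p = 0.0202). NUF2, a subunit of the outer kinetochore complex that grips microtubules, stood at 33.6 and 15.05, 73.3 and 65.4, and 65.7 and 60.3 CPM in LN229 and 34.0 and 31.5, 56.3 and 56.1, and 61.7 and 44.5 CPM in U251 (−1.13, SE 0.19, adjusted p = 0.0202). In these 3 genes every XRN2 siRNA library was below every control siRNA and mock library of its line. The others that fell were UBE2C (−0.81), the ubiquitin-conjugating enzyme of the same complex as CDC20, the spindle checkpoint protein MAD2L1 (−1.01), the kinases AURKB (−0.80), PLK1 (−0.69) and CDK1 (−0.73), the cyclins CCNB1 (−0.64) and CCNB2 (−0.71), the phosphatase CDC25C (−0.65), CDCA8 (−0.65) of the complex that holds AURKB, the centromeric histone CENPA (−0.74), and FOXM1 (−0.78), a transcription factor that drives this group, with adjusted p-values of 0.0202 to 0.0448.

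The XRN2 siRNA libraries of a line were not alike in this group. The summed level of the 40 genes stood at 72.1% and 50.5% of the control siRNA mean in LN229, with mock at 95.7% and 103.5%, and at 83.4% and 69.8% in U251, with mock at 99.8% and 84.7%. Replicate 2 was below replicate 1 in 39 of 40 genes in LN229 and in 40 of 40 in U251, and XRN2 itself was lower in replicate 2 in both lines. The part of the remaining XRN2 level in this difference was not tested. U251 mock replicate 2, the library with the stress transcripts, came within 2 percentage points of XRN2 siRNA replicate 1 in its line.

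**Figure D3:**
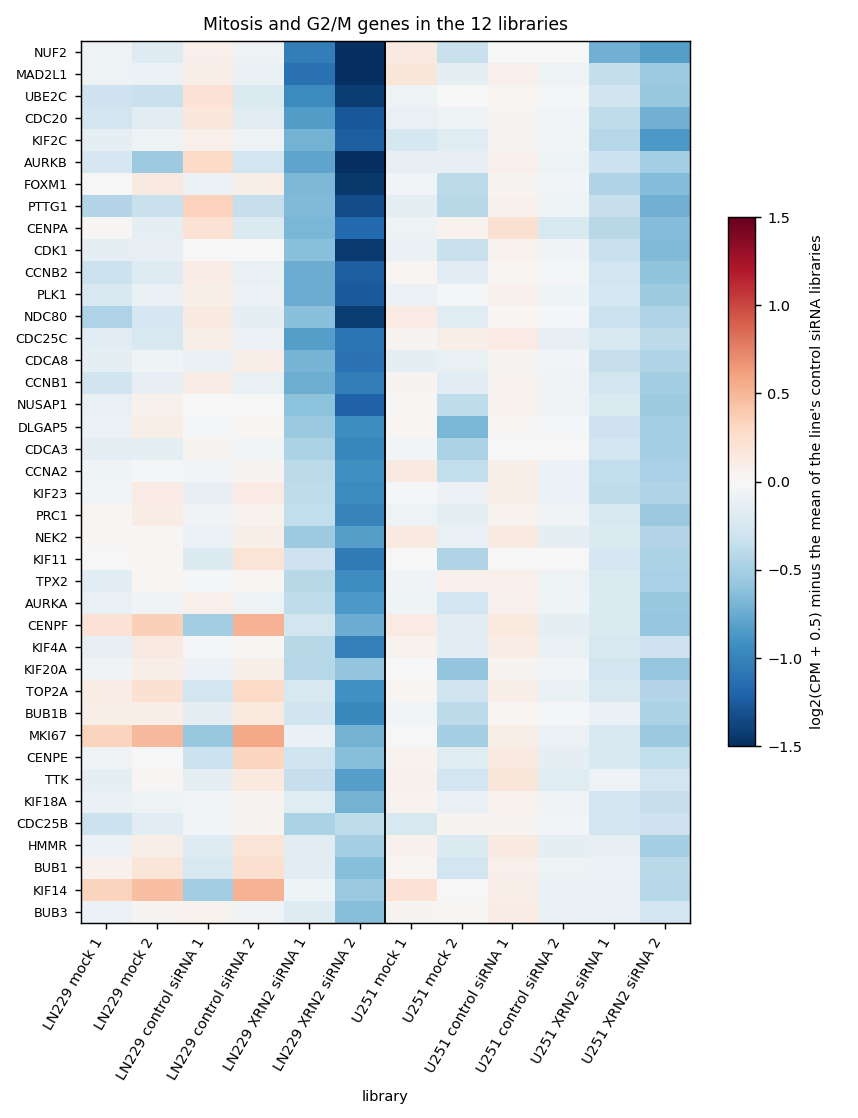
Each of the 40 mitosis and G2/M genes (rows, ordered by log2 fold change) in the 12 libraries (columns), as log2(CPM + 0.5) minus the mean of the control siRNA libraries of that line; blue is lower, red higher, and the black line parts LN229 from U251. The XRN2 siRNA columns are blue in both lines, deepest in LN229 replicate 2 (summed level 50.5% of control siRNA), and MKI67, CENPF and KIF14 also differ between the LN229 control siRNA replicates.

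Promoters are shown for the 4 mitosis genes with the smallest p in the 8-library test, since members that move together may share sequence. Each runs 5′ to 3′ on the plus strand for 300 bases around the start of the gene, as given by RefSeq (GRCh38.p14): chr1:43358731-43359030 for CDC20, chr1:37692266-37692565 for CDCA8, chr1:163321704-163322003 for NUF2 and chr1:44739587-44739886 for KIF2C. Capitals mark TTTGAA and CCAAT, searched on both strands (as TTCAAA and ATTGG on the other one).
CDC20: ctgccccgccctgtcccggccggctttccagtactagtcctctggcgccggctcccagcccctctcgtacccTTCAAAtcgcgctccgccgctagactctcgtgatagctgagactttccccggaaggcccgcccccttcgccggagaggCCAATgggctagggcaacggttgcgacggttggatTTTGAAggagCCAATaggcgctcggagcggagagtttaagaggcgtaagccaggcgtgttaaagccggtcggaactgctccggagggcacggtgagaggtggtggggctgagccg
CDCA8: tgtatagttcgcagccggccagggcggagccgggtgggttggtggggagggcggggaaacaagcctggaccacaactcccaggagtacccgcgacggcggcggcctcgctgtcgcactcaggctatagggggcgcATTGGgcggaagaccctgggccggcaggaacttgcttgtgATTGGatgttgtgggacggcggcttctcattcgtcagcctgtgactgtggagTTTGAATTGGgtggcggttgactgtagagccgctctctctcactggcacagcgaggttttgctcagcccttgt
NUF2: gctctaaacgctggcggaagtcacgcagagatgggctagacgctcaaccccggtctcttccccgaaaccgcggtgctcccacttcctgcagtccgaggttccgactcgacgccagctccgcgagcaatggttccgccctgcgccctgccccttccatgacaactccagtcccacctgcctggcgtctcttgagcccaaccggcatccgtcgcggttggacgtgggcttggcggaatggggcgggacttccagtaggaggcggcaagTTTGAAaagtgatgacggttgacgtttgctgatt
KIF2C: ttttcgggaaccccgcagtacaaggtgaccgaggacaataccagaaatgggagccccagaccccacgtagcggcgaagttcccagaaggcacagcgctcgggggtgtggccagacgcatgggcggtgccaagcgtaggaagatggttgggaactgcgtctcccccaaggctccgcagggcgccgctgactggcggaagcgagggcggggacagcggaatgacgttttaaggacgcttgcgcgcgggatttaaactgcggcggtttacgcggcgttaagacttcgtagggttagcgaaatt
TTTGAA is the core of the cell cycle genes homology region, known as the element through which the DREAM and MuvB complexes act on mitotic genes, and CCAAT is the word bound by NF-Y. In CDC20, TTTGAA begins 65 bases before the start with CCAAT words 100 and 55 bases before it, and a reversed copy lies at 178. In CDCA8, TTTGAA begins 23 bases before the start, runs into a reversed CCAAT at 18, and has others at 115 and 75. In NUF2 it lies 16 bases after the RefSeq start, which is not the start of the gene in the files, and the KIF2C window holds neither word.

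TTTGAA was in 23 of the 34 mitosis promoters in the RefSeq table (67.6%), against 15.4% of all 27305 promoters and 9.84% of the 10395 belonging to tested genes. CCAAT was in 27 of the 34 (79.4%), against 35.7% and 36.8%. The 110 genes that fell by the 12-library test held TTTGAA in 27.5% of 91 promoters, and in 21.5% of 79 when members of the 40-gene list were set aside (other genes of cell division remain), while the 63 that rose held it in 4 of 45 (8.89%). Replication genes held it in 1 of 40. The AP-1 word TGANTCA was in 7.76% of all promoters and 4.60% of those of tested genes, and the E-box word CACGTG in 7.43% and 10.1%. Among the genes that fell they stood at 4.40% and 9.89%, near the tested genes, and among those that rose at 8.89% each (4 of 45). A match is a description of the letters and not a site of binding.

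Fold changes of DNA replication genes were below 0 as well, but the U251 median was so only against control siRNA and near 0 against mock. All 48 tested members lay below 0 over both lines, 48 in LN229 (median −0.60) and 45 in U251 (median −0.25). Against mock the median was −0.30 over both lines and −0.007 in U251. POLA2, the regulatory subunit of DNA polymerase alpha, fell by the 12-library test: it stood at 76.0 and 46.4 CPM with XRN2 siRNA, 108 and 96.5 with control siRNA and 91.4 and 97.8 in mock for LN229, and at 20.8 and 15.2, 29.4 and 29.03, and 27.7 and 26.1 CPM in U251 (log2 fold change −0.71, SE 0.15, edgeR adjusted p = 0.0429). GINS2, of the replicative helicase, was at −0.70 and did not pass (adjusted p = 0.0674). The XRN2 siRNA libraries lay wholly below control siRNA in both lines for 28 of the 48, and for 5 when mock was included. Of all genes tested 9.54% and 4.38% did. In LN229 the summed level was 82.1% of control siRNA in XRN2 siRNA replicate 1 and 48.6% in replicate 2, with mock at 95.2% and 98.6%. Replicate 2 was below replicate 1 in 48 of 48 genes there, so the size of the LN229 fall rests largely on that library. In U251 the summed level with XRN2 siRNA was 88.1% and 81.5% of control siRNA, with mock at 96.0% and 72.5%. U251 mock replicate 2 thus lay below both XRN2 siRNA libraries. In the list of DNA break repair 30 of 37 genes lay below 0 (median −0.23) and H2AFX, the histone variant phosphorylated at breaks, fell by the 12-library test (−0.77, SE 0.13, adjusted p = 0.0224). H2AFX stood at −1.14 in LN229 and −0.39 in U251, and its XRN2 siRNA libraries did not lie below both mock libraries in each line.

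Lysosomal hydrolases moved in both directions. Of 45 tested hydrolases and activators, 6 fell (NEU1, GLB1, SUMF1, CTSC and CTSB among them) and 2 rose (CTSO and GAA) by the 12-library test. Over all genes tested 0.782% fell and 0.448% rose by it. The list's median of −0.03 was near that of all genes. NEU1, the lysosomal sialidase, stood at 29.7 and 22.0 CPM with XRN2 siRNA, 85.2 and 77.02 with control siRNA and 72.4 and 80.8 in mock for LN229, and at 85.8 and 83.3, 105 and 124, and 113 and 101 CPM in U251 (log2 fold change −1.04, SE 0.12, edgeR adjusted p = 0.00422). GLB1, lysosomal beta-galactosidase, was at −0.71 (SE 0.10, adjusted p = 0.0115), SUMF1, the activator of sulfatases, at −0.85 (SE 0.13, adjusted p = 0.0189) and the protease CTSB at −0.64 (adjusted p = 0.0202). These changes were larger in LN229 than in U251, −1.64 and −0.44 for NEU1 and −1.55 and −0.15 for SUMF1, where U251 mock overlapped the XRN2 siRNA libraries, but neither difference between the lines passed edgeR's test (adjusted p = 0.513 for each).

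CTSC, CTSO and GAA moved by nearer amounts in the 2 lines. CTSC, the dipeptidyl peptidase that activates serine proteases, stood at 91.8 and 74.2 CPM with XRN2 siRNA, 155 and 136 with control siRNA and 113 and 123 in mock for LN229, and at 170 and 161, 249 and 227, and 236 and 247 CPM in U251 (log2 fold change −0.67, SE 0.10, edgeR adjusted p = 0.0189). CTSO, a cysteine protease, stood at 33.0 and 42.9, 21.3 and 18.7, and 24.4 and 23.1 CPM in LN229 and at 17.2 and 19.6, 12.6 and 11.4, and 11.3 and 10.3 CPM in U251 (0.77, SE 0.13, adjusted p = 0.0202). GAA, which breaks down glycogen in lysosomes, was at 0.57 (adjusted p = 0.0315), with 0.61 in LN229 and 0.53 in U251. For all 3 genes the XRN2 siRNA libraries lay beyond every control siRNA and mock library of their line. SCARB2, a lysosomal membrane protein that carries glucocerebrosidase, was the 1 member of 27 in the membrane and trafficking list that fell (−0.65, SE 0.12, adjusted p = 0.0277). CACGTG was in 8 of the 29 hydrolase promoters in the RefSeq table (27.6%), against 10.1% of those of tested genes.

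**Figure D4:**
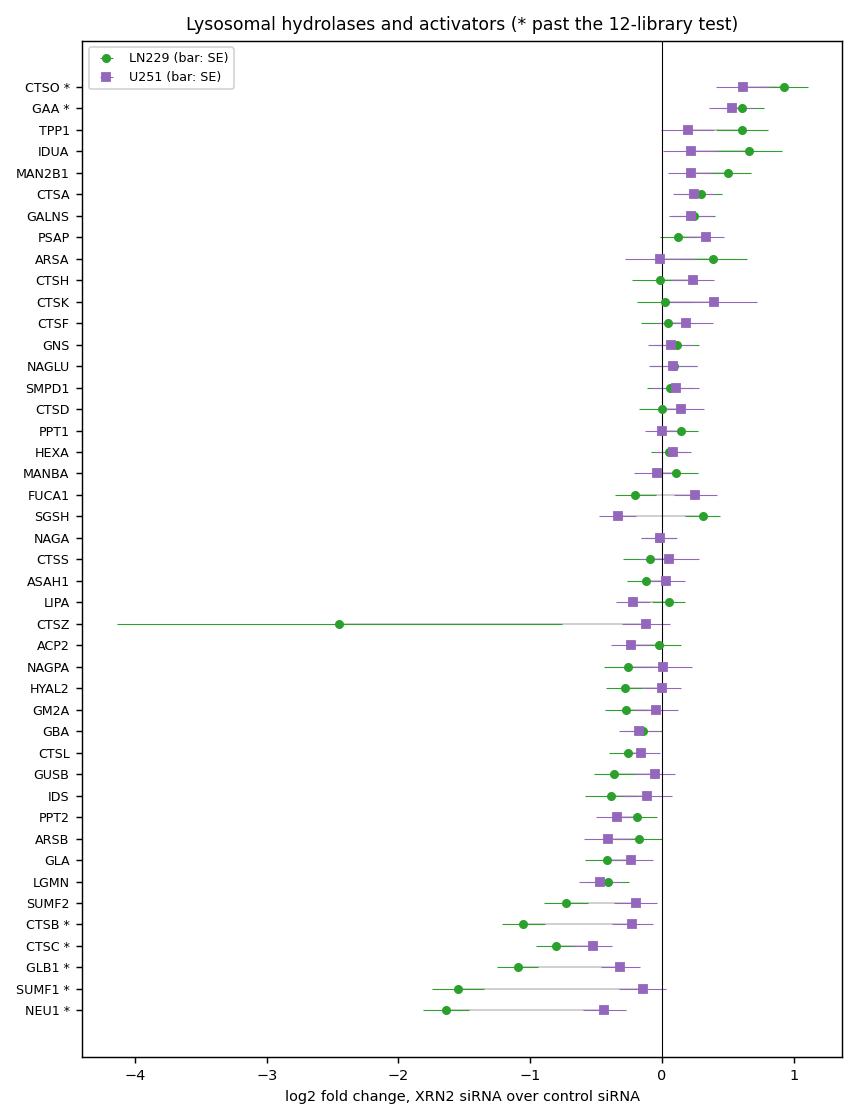
Log2 fold change of XRN2 siRNA over control siRNA for 44 of the 45 tested lysosomal hydrolases and activators, in LN229 (green circles) and U251 (purple squares), with bars of 1 SE and a star where the gene passed the 12-library test. The starred genes that fell are in the lower part, with the LN229 value of NEU1 at −1.64 and the U251 value at −0.44, and CTSO and GAA are at the top; the far LN229 value of CTSZ has a wide error.

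In the lists of adhesion and of matrix proteases, every gene that passed the 12-library test was lower. SERPINA5, which rose, is in neither list. ITGB1, the beta-1 chain shared by many integrins, stood at 551 and 284 CPM with XRN2 siRNA, 960 and 1281 with control siRNA and 1154 and 1117 in mock in LN229 (U251: 904 and 809, 1143 and 1178, and 1219 and 1139 CPM) (log2 fold change −0.93, SE 0.17, edgeR adjusted p = 0.0224). ITGB5, the beta-5 chain, was at −0.41 (SE 0.09, adjusted p = 0.0453) and FERMT2 (kindlin-2), which activates integrins, at −0.57 (SE 0.11, adjusted p = 0.0342). These were the 3 of 40 in the list of integrins and focal adhesion that fell, and none rose. Over all genes tested 0.782% fell by the 12-library test. The list's median was −0.06 (−0.12 without LN229 control siRNA replicate 1). PLAUR, the urokinase receptor, stood at 20.2 and 12.6, 42.3 and 32.5, and 32.3 and 34.1 CPM in LN229 and at 33.1 and 33.2, 46.1 and 61.9, and 51.9 and 39.0 CPM in U251 (−0.93, SE 0.16, adjusted p = 0.0220). With TFPI and the membrane protease ADAM15 (−0.47, adjusted p = 0.0477), it made 3 of 25 genes that fell in the list of matrix proteases and the plasminogen system (median −0.22, and −0.12 without LN229 control siRNA replicate 1), while MMP7 alone rose, by the 8-library test and in U251. ADAM15 stood at −0.76 in LN229 and −0.18 in U251, and its XRN2 siRNA libraries did not lie below both mock libraries in each line. NT5E (CD73), the surface enzyme that makes adenosine, moved by the same amount in the lines: 48.4 and 24.8 CPM against 76.7 and 70.1 in LN229 and 22.9 and 18.4 against 40.5 and 42.6 in U251 (−0.999, SE 0.19, adjusted p = 0.0281).

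Some list medians that were below 0 in LN229 were near 0 in U251 and depended on 1 library. All 53 cytosolic ribosomal protein genes lay below 0 over both lines (median −0.14), with −0.35 in LN229 and 0.07 in U251. Without LN229 control siRNA replicate 1 the median was 0.05 and 11 of 53 lay below 0, and against mock it was 0.02. Nuclear genes of oxidative phosphorylation had a median of −0.17 (COX8A at −0.81 and NDUFA2 at −0.89 fell by the 12-library test, edgeR adjusted p = 0.0341 and 0.0453), which became 0.01 without that library and 0.04 against mock. COX8A stood at −1.25 in LN229 and −0.37 in U251, and NDUFA2 at −1.35 and −0.44. For NDUFA2 the XRN2 siRNA libraries did not lie below both mock libraries in each line. Ribosome biogenesis genes stayed below 0, at −0.23 (38 of 44 below 0), −0.15 without that library (37 of 44) and −0.25 against mock (41 of 44). None passed either test. Wholly apart and lower in both lines were 15 of the 44, and 12 from mock as well, where 9.54% and 4.38% of all genes were. U251 mock replicate 2 held this list at a summed 4948 CPM, against 4044 in its partner. No snoRNA host gene of 22 passed either test (median −0.21, −0.07 without that library and −0.25 against mock).

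The other lists held few called genes. By the 12-library test 0.782% of all genes tested fell and 0.448% rose. Of 46 interferon-stimulated genes and RNA sensors, DHX58 rose by the 12-library test (0.90, SE 0.19, edgeR adjusted p = 0.0435). The list's median was 0.33 in LN229 (0.31 without LN229 control siRNA replicate 1) and −0.001 in U251. Over both lines it was 0.17, 0.07 without that library and 0.26 against mock. Of 28 genes of MAPK output none passed, with a median of −0.26 (−0.14 without LN229 control siRNA replicate 1 and −0.38 against mock). ETV4 and ETV1 stood at −0.89 and −0.73 (8-library edgeR adjusted p = 0.101 and 0.113). Of 33 genes of glycolysis and hypoxia LDHA fell (−0.71, adjusted p = 0.0448), with −1.12 in LN229 and −0.30 in U251. Of 11 of metal handling MT2A fell (−0.78, adjusted p = 0.0315), with −1.43 in LN229 and −0.13 in U251, and its paralogs are alike in sequence. For LDHA and MT2A the XRN2 siRNA libraries did not lie below both mock libraries in each line. Of 23 YAP and TEAD targets NT5E was the 1 that fell. Of 45 genes of transcription termination and 3′ end processing, the process XRN2 is known for, XRN2 was the only one past either test, and the median was 0.002. Of 40 genes of collagens, laminins and matrix glycoproteins SPP1 was the only one past either test (median 0.03). That list does not hold the collagen genes COL14A1, described above, and COL24A1, which rose by the 12-library test (1.49, SE 0.29, adjusted p = 0.0313) and was picked out after its values were seen. COL24A1 stood at 2.43 in LN229 and 0.56 in U251. Lists of RNA decay, siRNA machinery, histones, the unfolded protein response, p53, NF-kB, TGF-beta, cholesterol synthesis, epithelial-mesenchymal transition and mitochondrial mRNAs held no called gene. Their medians over both lines were −0.14 to 0.09. The 10 tested histone genes had medians of −0.10 in LN229 and 0.47 in U251, and 0.31 against mock. Of 9 tested oligodendrocyte markers MBP rose (1.05, SE 0.23, adjusted p = 0.0472), with 1.81 in LN229 and 0.29 in U251, and no marker of neurons, blood, endothelium, epithelium or fibroblasts passed.

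**Figure D5:**
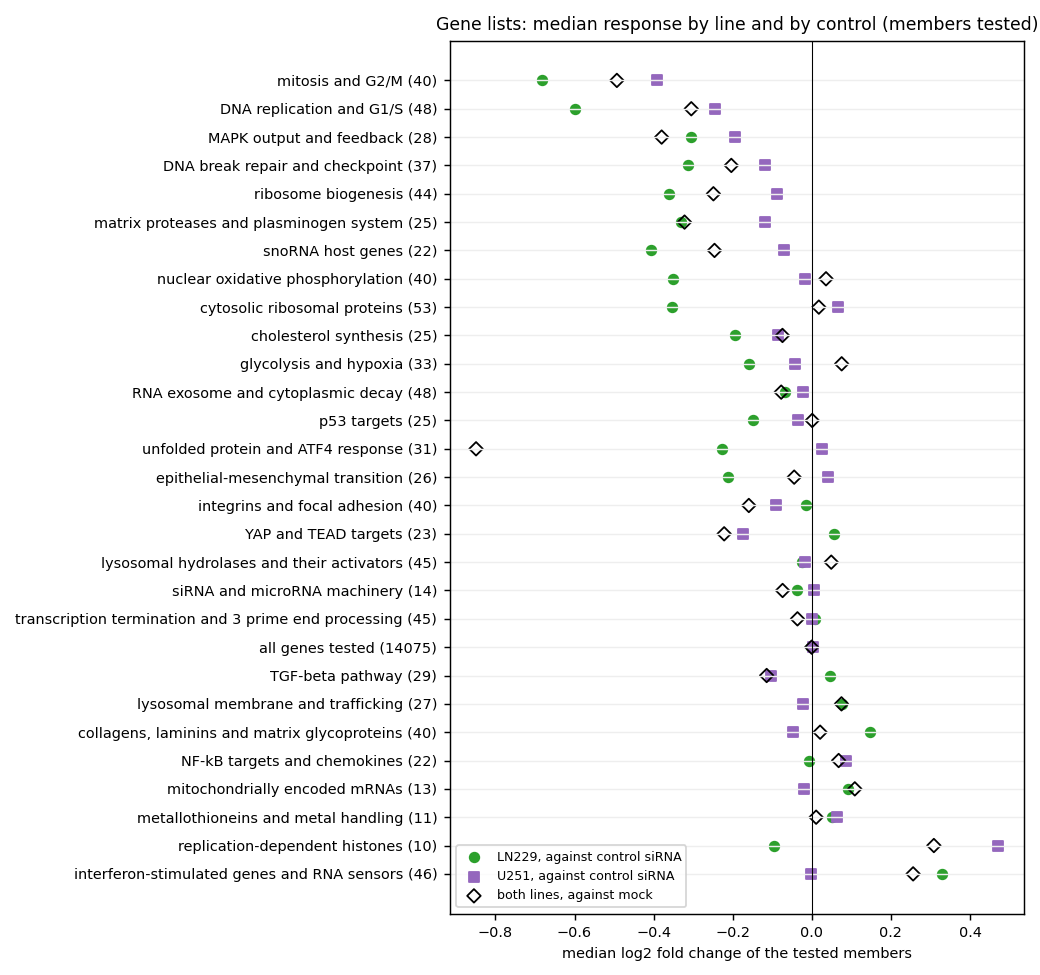
Median log2 fold change of the tested members of each gene list other than the cell type markers, against control siRNA in LN229 (green circles) and U251 (purple squares) and against mock over both lines (open diamonds); the number of members tested is in parentheses. Of the lists shown, the mitosis list is lowest in both lines (−0.68 and −0.39) and stands at −0.49 against mock, where only the unfolded protein and ATF4 list, at −0.85, is lower; U251 mock replicate 2 enters that comparison.

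The genes that rose and fell also differed in exon length, level, biotype, intron reads and the distance to the gene upstream. The test works on read counts, so level bears on which genes can pass and is no independent property. The 110 that fell by the 12-library test had a median exon length of 3895 bases and a median level of 71.9 CPM, and all were protein coding, whereas the 63 that rose had 5939 bases and 24.7 CPM with 55 protein coding; over all genes tested the medians were 4904 bases and 29.4 CPM. LN229 control siRNA replicate 1, whose values fell with length, enters these fold changes, and its part in the lengths was not tested. Reads in introns of genes with at least 10 of them went the same way as exon reads in 46 of 48 genes that rose and 54 of 89 that fell, against 5715 of 9353 over all genes tested, a share near that of the genes that fell. Without that library, which held few intron reads, the numbers were 43 and 75, against 5608 of 9353, and the median log2 ratio of intron reads was 0.40 and −0.36 against −0.04 for all genes. A tested gene on the same strand ended within 5 kb upstream of 15 of the 63 that rose (23.8%) and 10 of the 110 that fell (9.09%), against 15.1% of all genes tested.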

How the data were processed

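Total RNA of 12 libraries was used. Per the file headers, the authors deposited for each library a table of 58174 genes with read counts (total and unique exon, intron and gene reads), TPM and RPKM; the deposited TPM and RPKM values were not tested. GRCh37 and hg19 are the builds in the submitters' processing notes, yet 96.9% of the gene identifiers shared with GENCODE release 29 had that release's GRCh38 positions. Aligner and counter: not given in the sources used here, nor is the handling of reads with several matches.

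Total exon read counts as deposited were filtered with filterByExpr (minimum 10, total 15), scaled by TMM and fitted in R 4.3.3 with edgeR 4.0.16 (robust quasi-likelihood, line plus siRNA, 5 residual degrees of freedom, Benjamini-Hochberg at 0.05). The 12-library test used 1 mean per group (6 residual degrees of freedom) and was planned as an alternative. CPM values are TMM-scaled. Scripts were tested on simulated data. Alternatives were DESeq2 1.42.0, limma-voom (limma 3.58.1), other scaling, filters, count columns and controls, a replicate block and leaving out each library.

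Named genes are XRN2, called genes with a 1.5-fold change or more, libraries wholly apart in both lines and the same direction against mock (the 20 with the smallest p each way), and up to 4 called members, or else 2, of each list. MMP7, CCDC144CP and GREB1, called outside that rule, the genes named from the 12-library test, the promoter words, the intron and promoter checks and the 12-library test without LN229 control siRNA replicate 1 were chosen after values were seen. All members and lists were chosen with earlier results of these data known. Clone-like names were passed over. Some genes are not reported here.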

Additional observations from a re-analysis of the deposited data

How the results depend on the processing

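The number of genes called was 11 to 16 under 1 mean per group in 8 libraries, DESeq2 size factors, no TMM factors, a filter of 5 CPM and unique exon reads. With 1 mean per group 5 of the 13 passed (XRN2, SPP1, NRGN, TFPI and PSMG3-AS1); the other 8 did not, and the remaining settings kept 11 to 13. It was 173 in the 12-library fit (172 with one direction in both lines and 169 wholly apart), 342 with DESeq2 (328 and 316), 477 with limma-voom (443 and 369), 1100 without a filter (989 and 767), 64 with mock as the control (62 and 59), 663 with mock and control siRNA pooled (632 and 486), and 76 in the 12-library fit without LN229 control siRNA replicate 1, added after the data were seen (75 and 75). Leaving out single libraries gave 1 to 22 genes called, 1 to 20 in the same direction and 1 to 20 wholly apart. The cause was not tested. The difference between lines was called in 0 genes, 18 with DESeq2, 150 without a filter and 0 to 1692 with single libraries left out, highest without LN229 control siRNA replicate 2. Control siRNA against mock was called in 0 genes (402 at an unadjusted p under 0.05), 1 with DESeq2 and 178 without a filter.

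Replicate numbers showed no pairing of the samples across genes: correlations of same-numbered deviations were 0.0004 in LN229 and 0.0038 in U251 between control and XRN2 siRNA, and −0.07 to 0.10 over all groups. The labels state no pairing, and these values cannot exclude one, since single libraries such as LN229 control siRNA replicate 1 weigh on them. With the replicate block 3 genes were called, 3 in the same direction and 3 wholly apart.

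XRN2 passed under every alternative. Of 2263 values of 108 named genes, 1804 kept direction and side of the threshold, 335 newly passed, 111 no longer passed and 13 changed sign, of the genes called in 8 libraries only in MMP7. With mock as the control the log2 fold changes were −0.14 for ATF3, 0.0769 for IFI44L, −0.0107 for MAP2, 0.00155 for RPL35 and 0.0172 for SOX2. CD68 stood at 0.21 with limma-voom and, with single libraries left out, between −0.521 (U251 control siRNA replicate 1) and 0.0283 (LN229 control siRNA replicate 1). With 1 mean per group over 8 and 12 libraries LUM stood at 0.49 and 0.49 (0.55 without LN229 control siRNA replicate 1) and MMP7 at −0.43 and −0.44, both genes with almost no reads in one line. Of 693 list medians 34 moved by more than the difference between replicates or changed sign. Counts of 3 reads limit what can be seen of the higher genes in the line where they are rare.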

Other observations

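HMOX1, the haem-degrading enzyme induced by oxidative stress, stood at 157 and 340 CPM with XRN2 siRNA, 35.9 and 46.9 with control siRNA and 37.5 and 42.2 in mock in LN229. In U251 it stood at 67.1 and 73.2, 42.1 and 40.5, and 40.1 and 113 CPM. It was above control siRNA in all 4 libraries (log2 fold change 1.69, SE 0.38) but did not pass either test (edgeR adjusted p = 0.113 and 0.0575), and U251 mock replicate 2 exceeded the XRN2 siRNA libraries of its line. CDH11, a mesenchymal cadherin, was at 0.41 in both lines, with 58.5 and 63.3 CPM against 46.9 and 45.1 in LN229 and 989 and 1038 against 751 and 774 in U251, and did not pass (adjusted p = 0.113).

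The 31 genes of the unfolded protein and ATF4 response had a median of −0.06 against control siRNA and −0.85 against mock. Their summed level was 41734 CPM in U251 mock replicate 2, 8317 in replicate 1 and 7527 to 8256 in the other U251 libraries.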
